A study of Mus musculus with 13 samples.

Results

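The genes described here are those that lie within 5 Mb of *Nr3c1*, the gene for the glucocorticoid receptor (GR), on either side of it on mouse chromosome 18. The *Nr3c1* interval runs from 39410545 to 39519421 in mm10, and a gene belongs to the set when its counted interval overlaps 34410545 to 44519421 and it holds at least 10 counts over all libraries. Of 299 gene rows in that window, 93 reached 10 counts, and after *Nr3c1* and 1 other row were left out by name, 91 genes remained of the 55335 rows in the table. The set is defined by position and read number alone, with no comparison between groups used to choose it.

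GR is a nuclear receptor that binds glucocorticoids and acts on transcription in many tissues. A gene targeted in embryonic stem cells keeps a stretch of flanking chromosome from those cells, and this flanking DNA is inherited with the targeted allele through crosses unless recombination removes it. Genes near a targeted locus can therefore carry sequence variants that mark the chromosome and not the deletion. Comparing the neighbours of *Nr3c1* between embryos with and without the targeted chromosome addresses whether their RNA levels differed with that chromosome.

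Germ cells were sorted by the Tg(Pou5f1-EGFP)2Mnn reporter (Pou5f1-GFP) from the ovaries of single female embryos at E17.5, and 1 3′ Tag-Seq library was made per embryo. All embryos carried the reporter. WT embryos (n = 3) carried no targeted *Nr3c1* allele and KO embryos (n = 3) were homozygous for *Nr3c1tm1.1Jda* with exon 3 deleted through a constitutive β-actin Cre. The flox embryos (n = 3) were homozygous for the floxed exon 3 and negative for Cre, and the cKO embryos (n = 4) were floxed embryos of the same cross that also carried Pou5f1tm1.1(cre/Esr1*)Yseg, a tamoxifen-inducible Cre expressed from the *Pou5f1* locus in germ cells. Dams of both conditional groups received 125 μg/g tamoxifen at E10.5, and WT and KO dams received none. The KO, flox and cKO embryos thus all carried the targeted chromosome in 2 copies, and WT was the only group without it. Flox also differed from WT in its cross and in tamoxifen, so these cannot be told apart from the chromosome in that comparison. KO against WT differed in both the chromosome and the deletion, whereas cKO and flox shared the chromosome and differed in Cre. The origin of the stem cells and the number of backcross generations were not given in the sources used here.

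Library totals ranged from 2048706 to 3674989 counts, and the 91 genes took between 0.395% and 0.515% of each. Summed levels of 10 fetal oocyte markers lay between 10604 and 17573 CPM (counts scaled to a common library total), with 9 of the 10 detected and *Sycp3* listed at 0. The sum over 15 somatic ovary markers, all detected, was 210 to 258 CPM in WT, 167 to 199 in KO, 183 to 461 in flox and 269 to 501 in cKO. The KO libraries lay below the WT libraries in this sum, but its genes did not all go that way. *Foxl2*, *Wt1*, *Col3a1*, *Amhr2*, *Fst* and *Kitl* held more counts in KO than in WT, and the other markers fewer. *Amhr2* held 83 counts in KO and 45 in WT, and *Nr2f2* 218 and 508. The part of somatic RNA in the KO against WT values was not tested. Erythroid markers (4 of 8 detected) were at most 238 CPM in WT, 156 in KO and 199 in cKO, and reached 1263 CPM in flox replicate 1. Macrophage markers reached 67.3 CPM in KO and 2.45 CPM in WT. Each library came from 1 embryo, so the spread between replicates holds that between embryos and that of sorting, library preparation and counting, which cannot be told apart. In sorted bulk cells fewer cells of a type and less RNA per cell cannot be told apart.

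*Nr3c1* itself was at 46.0, 29.1 and 58.7 CPM in the WT libraries and at 34.2, 26.3 and 73.4 CPM in the KO libraries. The difference on the log2 scale was 0.00 with a standard error (SE) of 0.53 (edgeR quasi-likelihood test, adjusted p = 1.00). Tags of this kind come mainly from the 3′ end of the transcript, outside the deleted exon 3, so this value does not check the deletion. In the paper, 3′ single-cell RNA-seq of KO ovaries at an earlier stage gave a depletion of *Nr3c1* transcript in every cell type. Why the levels here did not differ was not tested.

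The window held dense and empty stretches. There were 67 members on the side of lower coordinates and 24 on the other, and 72 of the 91 are protein coding and 13 are lincRNAs. The mean level over all libraries ran from 0.325 to 475 CPM with a median of 9.89, and 15 genes were at 100 CPM or more. *Ik*, a splicing factor, was the highest at 475 ± 67.9 CPM (mean ± SD, n = 13). *Hspa9*, the mitochondrial HSP70 chaperone, was at 378 ± 92.1 CPM, *Rbm27*, an RNA binding protein, at 368 ± 88.5 CPM and *Ndfip1*, an adaptor of NEDD4 ubiquitin ligases, at 259 ± 44.4 CPM. All 13 libraries held reads of each of these 4 genes.

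**Figure D1:**
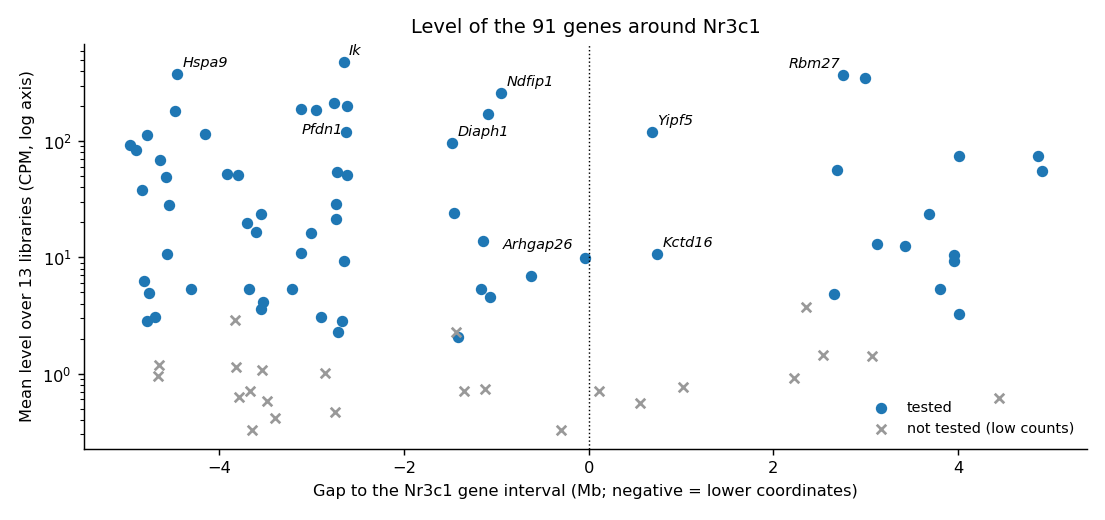
Mean level of each of the 91 genes over 13 libraries (CPM, log axis) against its gap to the Nr3c1 interval in Mb, with lower coordinates to the left; circles are the 67 genes tested and crosses the 24 not tested for low counts. Genes above 100 CPM stand on both sides, and no member lies between 1.48 Mb (Diaph1) and 2.61 Mb (Zmat2) on the left, the stretch of the clustered protocadherins.

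The empty stretch belongs to the clustered protocadherins, cell adhesion proteins best known from neurons. All 58 of their rows were at 0 counts in every library, and 57 of them lie wholly inside other gene rows. Reads were counted over whole gene intervals here, and all 138 rows in the window that lie wholly inside other rows had 0 counts. *Matr3*, a nuclear matrix RNA binding protein, *Taf7*, a TFIID subunit, *Eif4ebp3*, *Lrrtm2* and *Fgf1* are among these, so a 0 for them is no measure of expression. *Dnd1*, a germ cell RNA binding protein, was also at 0, and its 3′ end is shared with *Wdr55* over 5.50% of its length. *Wnt8a*, *Cd14* and *Pou4f3* had 0 counts with no overlap at all. A further 56 rows with 0 counts were not wholly inside others and 12 rows had 1 to 9 counts. Of the members, 50 overlap another gene and 41 do not, and the 21 whose 3′ end is shared had a median of 157 counts over all libraries against 350.5 for the other 70.

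Of the 91 members, 67 passed the filter on low counts and 24 did not. The 24 were 13 protein coding genes, 9 lincRNAs, 1 antisense gene and 1 pseudogene. A gene can pass through the group in which it is high, so counts over the 67 are given as descriptions only, beside the same share over all 13086 genes tested.

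No member differed at an adjusted p of 0.05 or less in any of the 4 comparisons (edgeR quasi-likelihood test with Benjamini-Hochberg adjustment over all genes). In KO against WT the share of all genes called was 0%, and 9 members (13.4%) had an unadjusted p under 0.05, 3 higher and 6 lower in KO. The share of all genes at that unadjusted p was 5.82%, with 2.36% higher and 3.45% lower. The lowest adjusted p among members was 0.847. DESeq2, which tested 89 of the 91 members, called 0 (0.0557% of all genes) and had 8 (8.99%) at an unadjusted p under 0.05, against 5.13% of all genes. Limma voom, which tested the same 67 as edgeR, called 0 members (0% of all genes) and had 7 (10.4%) at that p, against 5.47% of all genes.

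In cKO against flox, where both groups carry the targeted chromosome, 0% of all genes were called and 3 members (4.48%) had an unadjusted p under 0.05, 0 higher and 3 lower in cKO. All genes gave 3.19%, with 1.32% higher and 1.87% lower. In flox against WT, 0.00764% of all genes were called and 4 members (5.97%) were at that p, 3 higher and 1 lower in flox, against 3.06% of all genes, 1.88% higher and 1.18% lower. For the targeted chromosome (the mean of KO, flox and cKO) against WT, 0.00764% of all genes were called. This comparison also holds differences in cross, tamoxifen and the deletion, which cannot be told apart from the chromosome. There 8 members (11.9%) were at an unadjusted p under 0.05, 3 higher and 5 lower, against 4.26% of all genes, 1.83% higher and 2.43% lower. Of the 89 members tested by DESeq2, 4 (4.49%), 3 (3.37%) and 8 (8.99%) were at that p in these comparisons, in order, against 3.14%, 2.77% and 3.66% of all genes. Of the 67 tested by limma voom, 1 (1.49%), 1 (1.49%) and 10 (14.9%) were, against 4.07%, 3.87% and 5.67%. Both called 0 members in the 3 comparisons, where DESeq2 called 0.0232%, 0.00464% and 0.0278% of all genes and limma voom 0%, 0.00764% and 0%. WT and flox libraries each enter 3 of the 4 comparisons and KO and cKO libraries 2, so their counts are not independent.

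The share was not the same without each library. It ran from 7.46% (without KO replicate 3) to 14.9% in KO against WT and from 4.48% (without WT replicate 1) to 16.4% for the targeted chromosome against WT. In flox against WT it ran from 1.49% (without flox replicate 1) to 5.97%, and in cKO against flox from 4.48% to 7.46%. Without any filter on low counts, all 91 members could be tested. Then 9 members (9.89%) were at an unadjusted p under 0.05 in KO against WT, where 5.59% of every gene with a count were. The same fit gave 7 members (7.69%) in cKO against flox against 4.84% of all, 8 (8.79%) in flox against WT against 3.39%, and 13 (14.3%) for the targeted chromosome against 7.94%. *Stk32a* was the 1 member called there, for the targeted chromosome against WT (adjusted p = 0.0171, edgeR). Among the 35 members that averaged 50 counts or more in a library, a threshold chosen after seeing the data, 3, 2, 3 and 5 were at an unadjusted p under 0.05 in the 4 comparisons in order. All genes at that depth gave 5.03%, 3.04%, 2.66% and 3.57%.

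Median differences were near 0. On the log2 scale the median over the 67 members was -0.04 in KO against WT (all genes -0.03), -0.08 in cKO against flox (all genes -0.01), 0.00 in flox against WT (all genes 0.00) and -0.13 for the targeted chromosome against WT (all genes -0.05). The median SE in KO against WT was 1.02 for the members and 0.851 over all genes. The 95% interval of the difference lay within 2-fold in either direction for 9, 12, 13 and 14 members in the 4 comparisons in order. These are 13.4%, 17.9%, 19.4% and 20.9% of the 67, beside 11.6%, 14.9%, 12.5% and 21.96% of all genes. For the other tested members the interval reached past 2-fold at this depth.

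**Figure D2:**
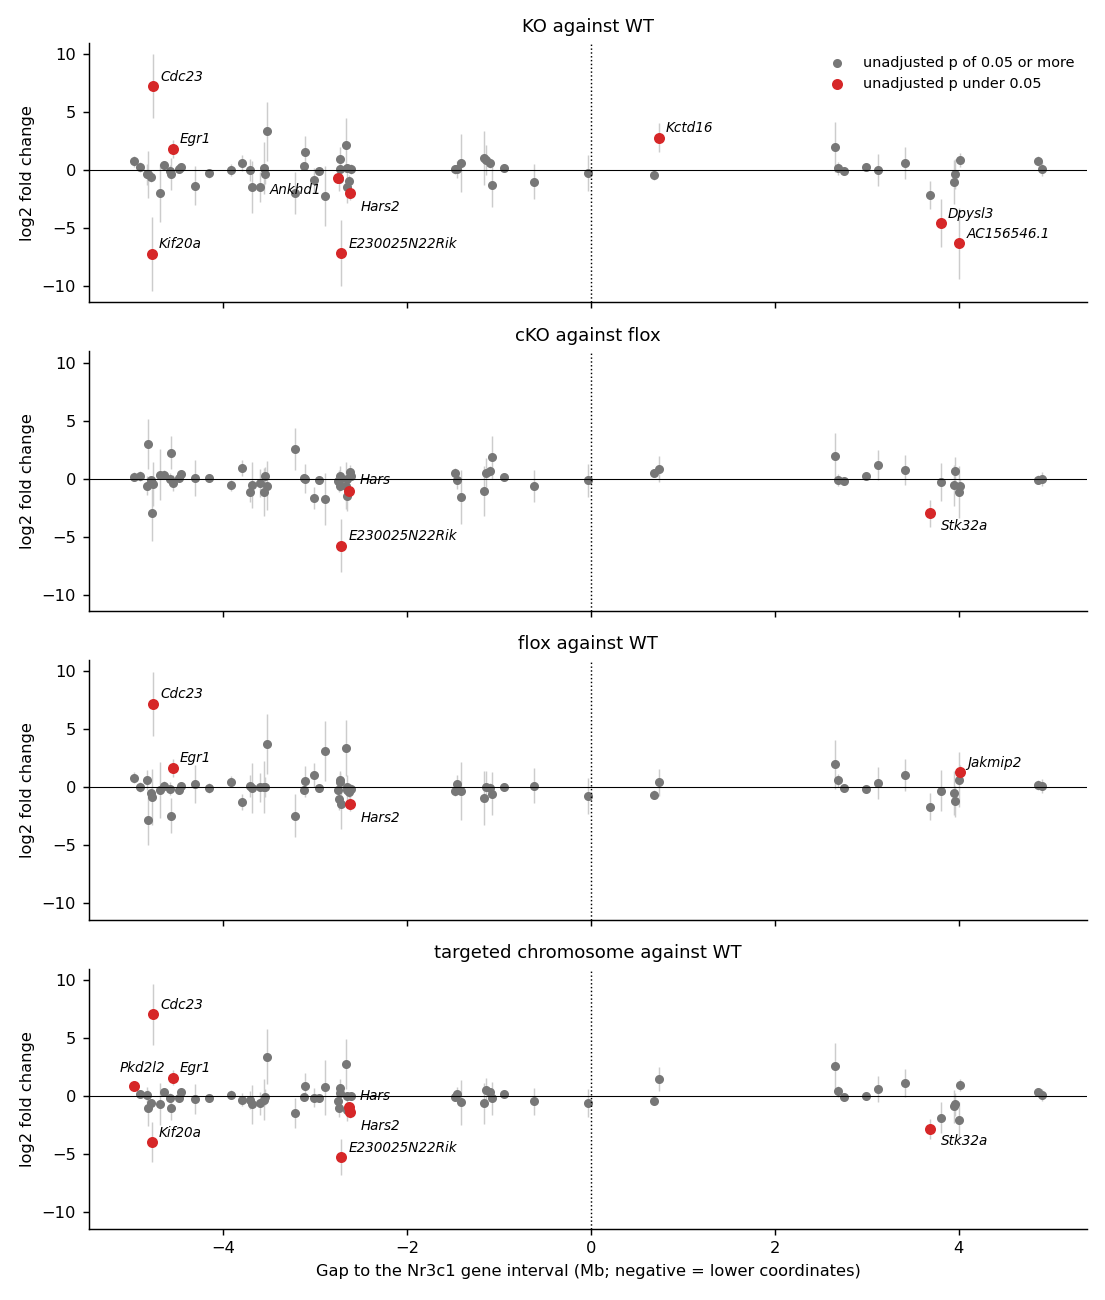
Log2 fold change of the 67 tested genes against the gap to the Nr3c1 interval in Mb, 1 panel per comparison; points are edgeR estimates, bars are 1 SE and red marks an unadjusted p under 0.05. Of the red points, 1 lies within 2.5 Mb of Nr3c1 (Kctd16, KO against WT) and the others lie farther out; estimates beyond 5 in size belong to genes with a group at 0 counts and depend on the prior count.

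The members were also arranged by distance. Within 1 Mb of *Nr3c1* 5 were tested, and 1 of them (20%), *Kctd16*, was at an unadjusted p under 0.05 in KO against WT and 0 were in each of the other comparisons. Between 1 and 2.5 Mb 7 were tested, with 0 at that p in any comparison. Between 2.5 and 5 Mb, 55 were tested, with 8 (14.5%) in KO against WT, 3 (5.45%) in cKO against flox, 4 (7.27%) in flox against WT and 8 (14.5%) for the targeted chromosome against WT. Just outside the window, from 5 to 10 Mb, 45 genes were tested, with 1, 1, 1 and 2 in the same order. Over chromosome 18 outside the window, 280 genes were tested and gave 4.64%, 5.36%, 5.36% and 6.07%. The bins were small, and no test was made between them.

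The 4 nearest tested neighbours on each side held mostly small or poorly measured differences. On the lower side these were *Arhgap26*, a GTPase activating protein (0.034 Mb away), *AC133601.1*, a lincRNA (0.622 Mb), *Ndfip1* (0.945 Mb) and *Gnpda1*, a glucosamine 6-phosphate isomerase (1.07 Mb). *Ndfip1* was well measured, at 238 ± 62.4 CPM in WT (SD, n = 3), 268 ± 37.5 in KO (n = 3), 248 ± 19.6 in flox (n = 3) and 274 ± 55.9 in cKO (n = 4). Its log2 difference in KO against WT was 0.17 with a 95% interval of -0.42 to 0.77. On the same scale flox against WT was 0.06, with an interval of -0.54 to 0.66. *Arhgap26*, the neighbour closest to *Nr3c1*, was at 13.6 ± 1.21 CPM in WT and 11.4 ± 14.1 CPM in KO, and its interval in KO against WT was -3.44 to 2.93. The symbol stands on 2 rows with overlapping intervals, and reads in the overlap could be left out of both.

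On the higher side the nearest were *Yipf5*, a Golgi membrane protein (0.684 Mb), *Kctd16*, an auxiliary subunit of GABA-B receptors (0.738 Mb), *Plac8l1* (2.66 Mb) and *Lars*, the cytosolic leucyl-tRNA synthetase (2.68 Mb). *Yipf5* was at 143 ± 54.5 CPM in WT, 103 ± 14.7 in KO, 93.0 ± 33.5 in flox and 132 ± 38.6 in cKO. Its groups overlapped in every comparison, and the lowest unadjusted p was 0.117 (flox against WT, edgeR). *Lars* was at 43.8 ± 10.3 CPM in WT and 59.7 ± 25.3 CPM over the 10 libraries with the targeted chromosome. That difference of 0.43 on the log2 scale had an interval of -0.53 to 1.38.

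*Kctd16* (40256962 to 40531630, plus strand) was the 1 neighbour within 2.5 Mb at an unadjusted p under 0.05. It held 15, 2 and 13 counts in the WT libraries and 44, 66 and 65 in the KO libraries. Every KO library was above every WT library, at 25.8 ± 8.05 CPM against 3.71 ± 2.84 CPM (n = 3 each). The log2 difference was 2.78 with an SE of 1.24 (edgeR, unadjusted p = 0.0344, adjusted p = 0.847, exact permutation p = 0.10). Of the 13 fits that each left out 1 library, 9 kept the edgeR p under 0.05. With no filter on low counts the unadjusted edgeR p of *Kctd16* was not under 0.05. Without WT replicate 2 the difference was 2.34 with an unadjusted p of 0.0984, and without WT replicate 1 it was 3.47. With 3 libraries against 3, 0.10 is the smallest p that an exact two-sided permutation test can give. The flox libraries, which carry the same chromosome without the deletion, held 6, 12 and 15 counts and overlapped WT, and cKO held 29, 39, 15 and 14. The KO effect and the cKO effect differed by 1.97 (SE 1.61) on the log2 scale (edgeR, adjusted p = 1.00), so a difference between the models was not shown.

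*Hars* and *Hars2*, the cytosolic and mitochondrial histidyl-tRNA synthetases, are divergent neighbours 2.63 and 2.62 Mb from *Nr3c1*. *Hars* lies on the minus strand at 36766528 to 36783205 and *Hars2* on the plus strand at 36783008 to 36792562, so they share a short stretch at their 5′ ends, away from the 3′ tags. *Hars2* had the lowest p in KO against WT. It held 278, 247 and 144 counts in WT and 110, 54 and 8 in KO. The WT library with fewest reads for its depth, replicate 3 at 39.2 CPM, lay within the KO range of 3.52 to 41.8 CPM, so the groups overlapped. The log2 difference was -1.96 (SE 0.67, edgeR unadjusted p = 0.00753, adjusted p = 0.847). It stayed at an unadjusted p under 0.05 in all 13 fits that each left out 1 library, but the difference moved to -2.64 without KO replicate 1 and to -1.45 without KO replicate 3.

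In the flox libraries *Hars2* held 79, 93 and 64 counts and in the cKO libraries 163, 202, 53 and 156. Flox was at 35.3 ± 5.39 CPM and cKO at 52.2 ± 24.5 CPM, against 93.4 ± 47.0 CPM in WT. Flox against WT was -1.40 on the log2 scale (SE 0.66, edgeR unadjusted p = 0.0440, adjusted p = 1.00), and the targeted chromosome against WT was -1.40 (SE 0.49, unadjusted p = 0.00833, adjusted p = 1.00). Without WT replicate 1 the unadjusted p of these became 0.136 and 0.0644. Flox and KO, which share the chromosome, differed by 0.56 with an interval of -0.80 to 1.92. The KO effect was below the cKO effect by a log2 value of -2.53 (SE 0.91, edgeR unadjusted p = 0.0106, adjusted p = 1.00).

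*Hars* held 623, 256 and 620 counts in WT, 358, 172 and 164 in KO, 89, 361 and 470 in flox and 208, 213, 164 and 149 in cKO. The cKO libraries lay together at 66.7 ± 13.8 CPM, while flox spread from 37.6 to 228 CPM. In cKO against flox the log2 difference was -1.09 (SE 0.43, edgeR unadjusted p = 0.0193, adjusted p = 1.00, exact permutation p = 0.314). Without flox replicate 3 it was -0.56 with an unadjusted p of 0.249. For the targeted chromosome against WT it was -0.96 (SE 0.36, unadjusted p = 0.0130, adjusted p = 1.00), and -0.58 with an unadjusted p of 0.183 without WT replicate 1.

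*Stk32a*, a serine/threonine kinase gene 3.69 Mb away on the higher side (43207583 to 43318682, plus strand), had the lowest p of the members in the targeted chromosome against WT comparison. It held 172, 194 and 93 counts in WT, 0, 2 and 96 in KO, 18, 99 and 20 in flox, and 6, 12, 8 and 1 in cKO. All WT libraries were above 8 of the other 10, and KO replicate 3 and flox replicate 2, at 42.2 and 44.0 CPM, lay between WT replicate 3 at 25.3 CPM and the other WT libraries. The mean was 64.7 ± 35.1 CPM in WT and 11.4 ± 17.0 CPM over the 10 libraries with the targeted chromosome. The log2 difference was -2.83 (SE 0.85, edgeR unadjusted p = 0.00291, adjusted p = 1.00, exact permutation p = 0.0175).

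Leaving out KO replicate 3 moved the *Stk32a* value to -4.45 with an adjusted p of 0.0445 (edgeR), the 1 case of a single library that made a call among the members. In KO against WT the groups overlapped, and the log2 difference was -2.16 (SE 1.22, edgeR unadjusted p = 0.0887). In flox against WT it was -1.66 (SE 1.20, unadjusted p = 0.179). The cKO libraries, at 2.51 ± 1.81 CPM, all lay below the flox libraries, at 20.4 ± 20.4 CPM. That log2 difference was -3.01 (SE 1.17, edgeR unadjusted p = 0.0164, adjusted p = 1.00, exact permutation p = 0.0286, the smallest that 4 against 3 allows). Without flox replicate 2 it was -1.77 with an unadjusted p of 0.175.

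*E230025N22Rik*, a predicted protein coding gene 2.72 Mb away on the lower side (36684923 to 36695925, minus strand), was detected in every WT library, with 26, 11 and 17 counts. It had 0 counts in all 3 KO and all 4 cKO libraries, and 1, 16 and 1 counts in flox. Here 3 counts per library were taken as the limit that a count of 0 allows. The WT mean was 5.46-fold above this limit for KO, and the flox mean 2.46-fold above it for cKO. These ratios leave out the spread between libraries, so they are not lower bounds. With that spread the edgeR 95% interval of the log2 difference was -13.1 to -1.27 in KO against WT. In cKO against flox it was -10.5 to -1.05. The unadjusted p was 0.0199 in KO against WT, 0.0192 in cKO against flox and 0.00302 for the targeted chromosome against WT, with adjusted p of 0.847, 1.00 and 1.00 (edgeR). Flox against WT overlapped, with 2.67 ± 3.84 CPM against 7.13 ± 3.80 CPM (unadjusted p = 0.532, edgeR). Without flox replicate 2, which held 16 of the 18 flox counts, the cKO against flox p became 0.128. The gene held 72 counts in all, so these levels rest on few reads.

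**Figure D3:**
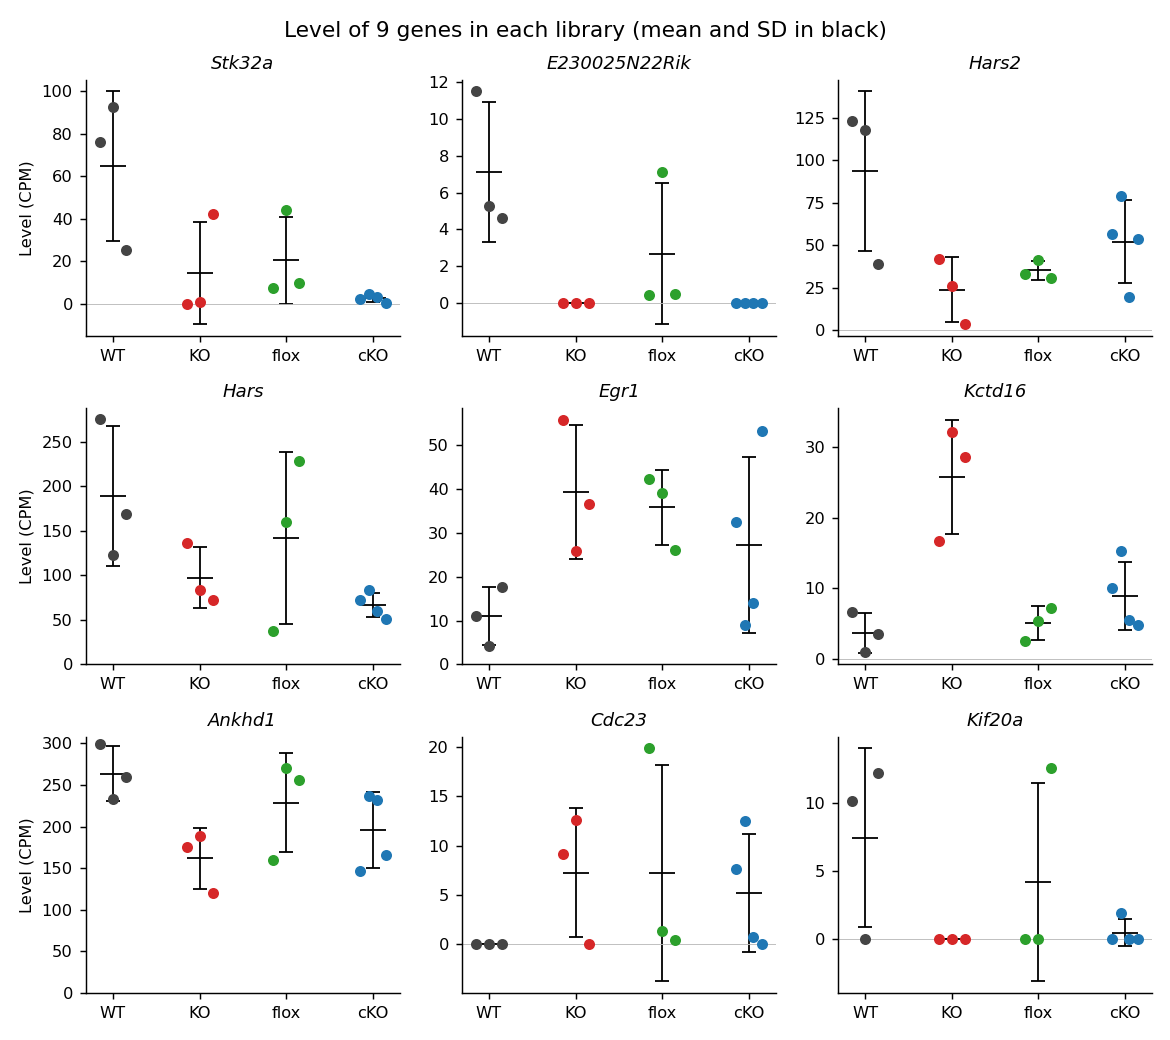
Level in CPM of 9 genes in each library, by group; each point is 1 embryo and black bars are the mean and SD (n = 3, 3, 3 and 4). Stk32a, E230025N22Rik, Hars2 and Hars had their highest single values in WT, all KO libraries of Egr1 and Kctd16 lay above all WT libraries, and Cdc23 was at 0 in WT.

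*Egr1*, an immediate early transcription factor that is quickly induced by handling and growth signals, lies 4.55 Mb away on the lower side (34859823 to 34864984, plus strand). It held 25, 9 and 65 counts in WT, 147, 53 and 83 in KO and 100, 88 and 54 in flox. Every KO and every flox library was above every WT library on the CPM scale, at 39.4 ± 15.3 and 35.8 ± 8.52 CPM against 11.0 ± 6.69 CPM. The log2 difference was 1.82 in KO against WT (SE 0.77, edgeR unadjusted p = 0.0262, adjusted p = 0.847) and 1.69 in flox against WT (SE 0.77, unadjusted p = 0.0377, adjusted p = 1.00). The exact permutation p was 0.10 in both, and 10 and 9 of the 13 fits without 1 library kept the edgeR p under 0.05. The cKO libraries held 94, 23, 38 and 154 counts, at 27.2 ± 20.1 CPM, and the lowest of them lay within WT. The 10 libraries with the targeted chromosome were at 33.4 ± 15.3 CPM (unadjusted p = 0.0253 against WT, adjusted p = 1.00, exact permutation p = 0.0175), and without WT replicate 2 its unadjusted p was 0.112.

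Other immediate early genes were taken as a list chosen after the *Egr1* values were seen. Its 12 genes include *Fos*, *Jun*, *Junb*, *Dusp1* and *Btg2*. All 12 had counts and 10 were tested. The summed level was 56.2 to 109 CPM in WT, 54.4 to 143 in KO, 79.1 to 246 in flox and 53.7 to 173 in cKO. Of the 10, 0 had an unadjusted p under 0.05 in KO against WT, in flox against WT and for the targeted chromosome against WT, and 1 did in cKO against flox. The estimate was positive for 5 in KO against WT and for 8 in flox against WT.

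The cell cycle genes *Cdc23*, a subunit of the anaphase promoting complex, and *Kif20a*, a mitotic kinesin, lie 4.76 and 4.78 Mb away and converge on each other. *Cdc23* had 0 counts in all 3 WT libraries. It held 24, 26 and 0 counts in KO, 47, 3 and 1 in flox, and 22, 32, 2 and 0 in cKO. Its mean over the 10 libraries with the targeted chromosome was 5.39-fold above the same limit for WT. Of the 10, 8 held a read (edgeR unadjusted p = 0.0138, adjusted p = 1.00, exact permutation p = 0.0699). The flox mean was 6.06-fold above the limit, resting mainly on flox replicate 1, without which the unadjusted edgeR p was 0.105. The other flox libraries, at 3 and 1 counts, did not exceed the 3 counts allowed for a 0, so these ratios are not lower bounds.

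*Kif20a* went the other way, with 23, 0 and 45 counts in WT, 0, 0 and 0 in KO, 0, 0 and 26 in flox and 0, 5, 0 and 0 in cKO. The WT mean was 5.72-fold above the same limit for KO. This ratio is not a lower bound either, as 1 WT library was also at 0. On the log2 scale the edgeR 95% interval of the difference was -13.8 to -0.661 (unadjusted p = 0.0325, adjusted p = 0.847). The exact permutation p was 0.40. The edgeR p was under 0.05 in 9 of the 13 fits without 1 library. The intervals of these genes overlap at their 3′ ends, over 11.8% of *Cdc23* and 26.9% of *Kif20a*, where 3′ tags fall. Reads in that overlap could be left out or given to either gene, depending on a strand setting that was not given, so both levels are uncertain. *Diaph1*, a formin that nucleates actin filaments, was at 97.1 ± 35.1 CPM in WT and 99.1 ± 34.6 CPM in KO.

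*Ankhd1*, a large ankyrin repeat protein 2.75 Mb away (36559987 to 36658913, plus strand), was the most abundant gene at an unadjusted p under 0.05 in any comparison. It held 676, 487 and 954 counts in WT and 463, 389 and 274 in KO. All KO libraries were lower, at 162 ± 36.4 CPM against 264 ± 33.4 CPM. The log2 difference was -0.70 (SE 0.32, edgeR unadjusted p = 0.0350, adjusted p = 0.847). Without KO replicate 3 it was -0.53 with an unadjusted p of 0.139. Flox, at 229 ± 59.7 CPM, overlapped WT with a difference of -0.21 (SE 0.31), and cKO was at 196 ± 46.0 CPM.

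On the far sides of the window a few more genes stood at an unadjusted p under 0.05. *Dpysl3*, a cytoskeletal protein of growing axons, had 0, 1 and 1 counts in KO and 14, 24 and 29 in WT. The ratio of the pooled counts, scaled for depth, was 0.0344. Its exact 95% interval of 0.00409 to 0.129 covers counting alone and leaves out the spread between libraries. With that spread *Dpysl3* had an edgeR 95% interval of -8.92 to -0.295 for the log2 difference (unadjusted p = 0.0373, adjusted p = 0.847). Of the 13 fits without 1 library, 8 kept the edgeR p of *Dpysl3* under 0.05. Its flox counts of 42, 1 and 5 and cKO counts of 3, 23, 32 and 1 spanned both. *Jakmip2*, a microtubule associated protein, was at 107 ± 49.8 CPM in flox and 43.6 ± 24.6 CPM in WT, a log2 difference of 1.30 (SE 0.63, edgeR unadjusted p = 0.0494, adjusted p = 1.00). It stayed under 0.05 in 4 of the 13 fits without 1 library, and without flox replicate 3 the difference was 0.84. The ninth gene in KO against WT was the lincRNA *AC156546.1*, named after its values were seen, with counts in 1 of 3 WT libraries and none in KO.

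*Pkd2l2*, a polycystin family channel gene known from spermatogenic cells, lies at the outer end of the window, 4.97 Mb away. It held 48, 170 and 239 counts in WT, 256, 134 and 260 in KO, 196, 220 and 248 in flox and 428, 158, 357 and 319 in cKO. All flox libraries were above WT on the CPM scale, at 100 ± 18.8 against 55.8 ± 31.0 CPM. For the targeted chromosome against WT the log2 difference was 0.86 (SE 0.38, edgeR unadjusted p = 0.0326, adjusted p = 1.00, exact permutation p = 0.0210). Without WT replicate 1, at 21.2 CPM, it was 0.47 with an unadjusted edgeR p of 0.229. The 3′ end of *Pkd2l2* is shared with another gene row, an overlap of 4.96% of its length, so reads there could be left out. *Nme5*, the other tested gene of the germ cell and sperm group, was at 35.2 ± 30.5 CPM in WT and 38.6 ± 25.7 CPM with the targeted chromosome.

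Grouped by role, no member of any group was called in any of the 4 comparisons. In the translation and tRNA charging group 5 members were tested, and 1, 1, 1 and 2 were lower at an unadjusted p under 0.05 in the 4 comparisons in order, all of them *Hars* or *Hars2*. *Etf1*, the release factor of translation termination, was at 195 ± 69.1 CPM in WT and 178 ± 27.7 CPM with the targeted chromosome, a log2 difference of -0.13 (95% interval -0.64 to 0.39). None of the 6 tested genes of RNA processing and decay was at an unadjusted p under 0.05 in any comparison, among them *Ik*, with a log2 difference of 0.14 in KO against WT (95% interval -0.41 to 0.70). *Rbm27* had an interval of -0.72 to 0.59 there.

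Of 7 tested genes of chromatin and transcription, *Egr1* was higher at that p in 3 comparisons and no other was. *Pura*, a single-stranded nucleic acid binding protein, was at 194 ± 7.81 CPM in WT and 244 ± 88.4 CPM in KO, and *Brd8*, a bromodomain subunit of a histone acetyltransferase complex, at 153 ± 46.7 and 99.8 ± 59.7 CPM. Their log2 differences of 0.33 (SE 0.33) and -0.62 (SE 0.44) were not past that p. *Kdm3b*, a histone demethylase, was at 53.4 ± 12.1 CPM in WT and 48.4 ± 18.9 CPM with the targeted chromosome. Among 7 tested chaperone and ubiquitin genes 0 were at that p in any comparison. *Hspa9* was at 310 ± 7.74 CPM in WT and 373 ± 25.3 CPM in KO with no overlap, a log2 difference of 0.27 (SE 0.28, edgeR unadjusted p = 0.347). *Pfdn1*, a prefoldin subunit, differed by -0.12 (SE 0.33). The 7 tested signalling genes had 0 at that p as well, among them *Ppp2r2b*, a regulatory subunit of protein phosphatase 2A, and *Apbb3*, an adaptor of the amyloid precursor protein. *Ppp2r2b* was at 8.02 ± 8.38 CPM in WT, 7.68 ± 8.44 in KO, 10.2 ± 8.03 in flox and 23.1 ± 8.42 in cKO, and *Apbb3* was at 14.8 ± 11.7 CPM in WT and 28.1 ± 7.83 CPM in KO. *Ctnna1*, alpha catenin, was the 1 tested adhesion gene, at 122 ± 39.6 CPM in WT and 113 ± 37.1 CPM with the targeted chromosome.

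Separation of the groups gave another count. In KO against WT 8 tested members did not overlap, with *Egr1*, *Hspa9*, *Kctd16* and *Dcp2*, an mRNA decapping enzyme, higher in KO and *Ankhd1*, *E230025N22Rik*, *Wdr55* and *Dpysl3* lower. That is 11.9% of the 67, beside 9.46% of all genes. In cKO against flox 4 did not overlap (5.97%, beside 4.97% of all genes), 1 higher (Gnpda1) and 3 lower (Stk32a, *E230025N22Rik* and *Cystm1*). In flox against WT 5 did not overlap, all higher in flox (7.46%, beside 8.29% of all genes), and these were *Pkd2l2*, *Cdc23*, *Egr1*, *Cystm1* and *Jakmip2*. For the targeted chromosome against WT no member separated all 10 libraries from the 3 WT libraries, beside 0.436% of all genes. *Dcp2*, *Wdr55* and *Cystm1* were named after their values were seen.

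KO against WT and cKO against flox share no library. Across the 67 members their log2 differences had a Pearson r of 0.42 and a Spearman coefficient of 0.24, and across the 35 members averaging 50 counts or more 0.43 and 0.31. Across all 13086 genes the values were 0.0058 and 0.036. These are across genes, which are not independent replicates, and they share their fit and the low counts of many members, so no p is given. Both sets of members hold *Stk32a*, with large negative values in the 2 comparisons (-2.16 and -3.01). The 67 also hold *E230025N22Rik*, at -7.17 and -5.78 from groups at 0 counts. Pearson r can rest on such single genes, and it was not computed without them.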

How the data were processed

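The study sorted *Pou5f1*-GFP germ cells from E17.5 ovaries and made 13 QuantSeq 3′ FWD libraries, 1 per embryo, grouped here by their labels. Per the labels and the methods, the authors trimmed reads with cutadapt, aligned them to mm10 with STAR 2.6.0 and counted them with featureCounts 1.6.3. The annotation and strand setting are not given in the sources used here. The deposited counts are raw counts per gene, and in all 55335 rows the stated length equals the whole gene interval, so introns were counted and reads in overlaps between genes could be lost. Tables of the authors' comparisons (edgeR 3.28.1 and limma 3.42.2), which hold fold changes and p-values, were not used. Symbols came from a GENCODE M21 name table, matching 54587 rows by identifier and 567 more by the identifier without its version.

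Counts were fitted with edgeR 4.0.16 in R 4.3.3 by the quasi-likelihood test, after filterByExpr and TMM normalization, with 4 group means over 13 libraries (common biological coefficient of variation 0.841), and p-values were adjusted by Benjamini-Hochberg over 13086 genes. A call is an adjusted p of 0.05 or less. CPM of single genes are counts scaled to a common library total after TMM normalization, and marker sums use the plain totals. Exact permutation tests were two-sided on log2 CPM with a prior count of 2. The fit was also run on simulated counts with changes planted only in better counted genes, so it does not bear on low-count members. Distance is the gap between gene intervals. Alternatives were edgeR's RLE factors, no filter on low counts, DESeq2 1.42.0, limma 3.58.1 voom, a replicate block, fits of the compared groups only, windows of 2.5 and 10 Mb, and leaving out each library.

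The members, gene lists and comparisons were chosen with earlier results of these data known. Named genes are *Nr3c1*, up to 8 members with the lowest p under 0.05 in each comparison, the 4 nearest tested on each side, the 5 with the highest mean CPM, and up to 3 of the highest mean CPM in each role group. Of the genes this rule names, 1 is not reported here. Exceptions are named as chosen after their values were seen. No nucleotide sequences are printed.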

Additional observations from a re-analysis of the deposited data

Results flagged for a closer look

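In 33 genes the 4 cKO libraries were examined for a single library far from the rest, by the gap to its nearest neighbour as a share of the range on the log2 CPM scale, and 3 genes stood out. For continuous values chance alone gives about 1 in 20 such groups. *Kif20a* was at 1.95 CPM in cKO replicate 2, from 5 counts, and at 0 in the other 3. With 3 libraries at 0 any count in the remaining library is flagged, so that rate does not apply to *Kif20a*. *Hspa9* was at 635.42 CPM in cKO replicate 1, with the others between 391 and 423 CPM. *Brd8* was at 47.09 CPM in the same library, with the others between 112 and 118 CPM. No named gene had a KO effect that differed from its cKO effect at an adjusted p of 0.05 or less (edgeR).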

How the results depend on the processing

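Across 429 values of 23 gene results under alternatives, 0 reversed and 2 became calls, both of *Stk32a* for the targeted chromosome against WT: -2.81 (adjusted p = 0.0171, edgeR) with no filter on low counts, and -4.45 (adjusted p = 0.0445) without KO replicate 3. With no filter 1 member was thus called in that comparison. The share of tested members at an unadjusted p under 0.05 moved by over 1.5 times as follows, and the cause was not tested. In KO against WT (13.4%) it was 8.33% within 2.5 Mb, 8.93% within 10 Mb and 8.57% in members with a mean of at least 50 counts. In cKO against flox (4.48%) it was 7.69% with no filter, 1.49% with limma voom and 0% within 2.5 Mb. In flox against WT (5.97%) it was 3.37% with DESeq2, 1.49% with limma voom and 0% within 2.5 Mb, and for the targeted chromosome (11.9%) 0% within 2.5 Mb. Within 2.5 Mb, taking no filter turned 8.33% into 0% in KO against WT, and 0% into 4.76% in cKO against flox and for the targeted chromosome. Without 1 library the share ran from 7.46% to 14.9% in KO against WT, 4.48% to 7.46% in cKO against flox, 1.49% to 5.97% in flox against WT and 4.48% to 16.4% for the targeted chromosome, where 0 to 1 members were called. The replicate block gave 7.46% in KO against WT and 1.49% in cKO against flox. Deviations of same-numbered libraries over all genes had r from -0.05 to 0.06 over 18 pairs. With so few libraries per group this cannot show whether the numbers pair embryos, which is not known. At this depth the 95% interval of the difference lay within 2-fold for 9 to 14 of the 67 tested members.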
